A study of Mus musculus with 6 samples.

Results

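Hyaluronan is a long, unsulfated sugar chain of the extracellular matrix and of the coat on the surface of endothelial cells (ECs). It is spun out at the plasma membrane by hyaluronan synthases from nucleotide sugars, held to proteoglycans such as versican by link proteins, bound by receptors such as CD44 and LYVE1, and cut by hyaluronidases. In blood vessels this coat is known as part of the glycocalyx, which lines the lumen. The 10 genes described here cover these steps: the synthases *Has1*, *Has2* and *Has3*, the link protein gene *Hapln1*, the proteoglycan gene *Vcan*, the receptor genes *Cd44*, *Lyve1* and *Stab1*, and the hyaluronidase genes *Hyal1* and *Hyal2*. They were chosen by function after the strong rise of *Hapln1* in these libraries had been seen. The values of *Hapln1* are therefore given as a description with no test, and the other genes were tested with the same libraries.

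RNA-Seq was performed in 6 libraries of mouse lung endothelial cells (LECs), 3 from *Atgl* ECKO cells and 3 from control cells. *Atgl* ECKO cells came from mice in which Cre, driven by the endothelial *Cdh5* promoter, deletes the floxed gene of adipose triglyceride lipase (*Pnpla2*, also called *Atgl*), while control cells carried the floxed alleles (f/f) and are called wild type littermate cells in the methods. Cells of both genotypes were immunoselected with CD31, immortalized with the middle T antigen, grown in EGM-2 medium with fetal bovine serum and left untreated. The methods give an age for phenotyped mice of this colony but not for the mice whose lung cells were taken, and nothing says whether the libraries of a genotype came from separate animals or cultures, so the p-values reflect only how far libraries of a genotype differ, which may be technical.

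Of the 10 genes, 9 had a row among the 20409 gene symbols of the table, and 8 were among the 12837 genes that averaged 1 CPM or more over the 6 libraries, CPM being the reads of a gene scaled to the depth of its library. *Has2* fell below that level, and *Has1* was not analysed here. One CPM rested on 55.5 to 69.0 reads in a library. Differences were tested with limma on log2(CPM + 1), with Benjamini-Hochberg (BH) adjustment over the 12837 genes, and a log2 fold change is the mean of *Atgl* ECKO minus the mean of control on that scale, with its 95% interval. The added 1 CPM makes this value smaller than the ratio of CPM for low genes.

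The libraries split widely by genotype. The targeted gene *Pnpla2* had 9.97, 9.11 and 9.13 CPM in *Atgl* ECKO, against 27.6, 26.3 and 30.1 CPM in control LECs, so 33.6% of the control level was still read (exact two-sided permutation p = 0.1, the smallest that 3 against 3 libraries allow). At an adjusted p under 0.05, *Atgl* ECKO was higher for 34.2% of the tested genes and lower for 36.2%, and 73.1% had no overlap between the genotypes. Whole chromosomes were shifted: for genes averaging 5 CPM or more, the median log2 fold change was 0.45 on chromosome 14 and -0.23 on chromosome 2, and -4.43 for the 4 such genes on chromosome Y. The methods state that male mice were used in all experiments, and no source gives the sex of the mice behind each library. Genotype cannot be told apart from the chromosome content of the cells, including chromosome Y. All 12 endothelial markers were tested, and their summed level was 5570 to 5942 CPM in *Atgl* ECKO and 5427 to 5652 CPM in control LECs. Within this sum 5 markers were higher and 4 lower, among them *Cldn5*, 3.81-fold higher (limma BH-adjusted p = 3.57e-12), and *Vwf*, at 38.9% of its control level (2.79e-14). In bulk libraries, fewer cells of a type and less RNA per cell cannot be told apart.

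Leaving *Hapln1* aside, 7 of the genes were tested. *Cd44*, *Vcan*, *Hyal1* and *Stab1* were higher in *Atgl* ECKO, which is 4 of 7 beside 34.2% of all tested genes. The direction of *Stab1* depended on the processing, as given below. *Has3* and *Hyal2* were lower, which is 2 of 7 beside 36.2%, and *Lyve1* was not called. The genotypes did not overlap for 6 of the 7, beside 73.1% of all tested genes. The median log2 fold change of the 7 genes was 0.08, beside -0.01 over all tested genes. This median is the value of *Stab1* and so depends on the processing too.

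**Figure D1:**
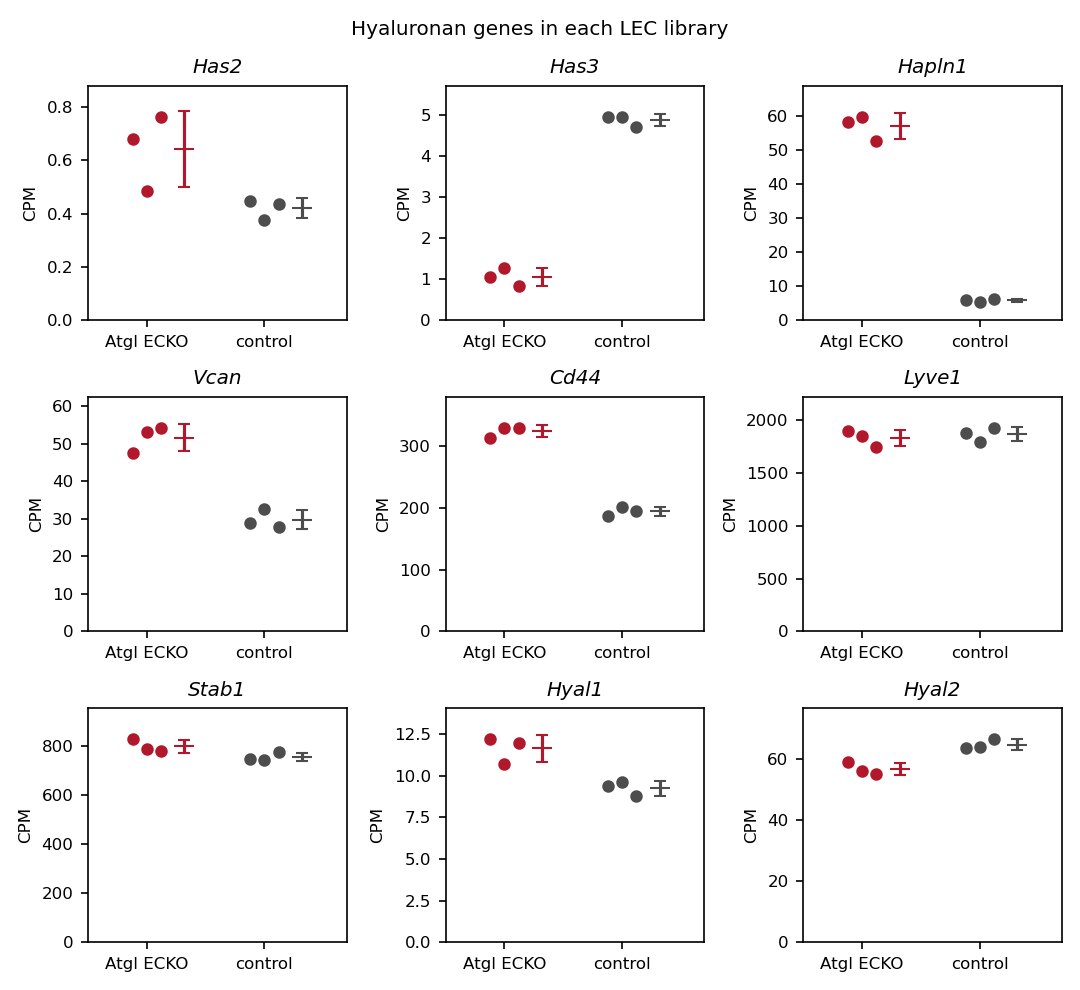
CPM of 9 hyaluronan genes in each library (points, 3 *Atgl* ECKO on the left and 3 control on the right of each panel), with the mean and SD as a bar beside the points; every axis starts at 0. *Hapln1* lies between 52.7 and 59.9 CPM in *Atgl* ECKO and between 5.39 and 6.23 CPM in control, *Has3* lies lower in *Atgl* ECKO, and the points of *Lyve1* overlap.

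The synthases differed in direction. HAS3, an enzyme of the plasma membrane that is known for making shorter hyaluronan chains than HAS2, was encoded by a transcript at 1.04, 1.26 and 0.841 CPM in *Atgl* ECKO, against 4.95, 4.94 and 4.71 CPM in control LECs. The genotypes did not overlap, and *Has3* stood at 21.6% of its control level (means 1.05 ± 0.211 and 4.87 ± 0.139 CPM, SD, n = 3 each). *Has3* fell by 1.52 on the log2(CPM + 1) scale (interval -1.70 to -1.35, limma BH-adjusted p = 1.9e-10), and the log2 ratio of the mean CPM was -2.21. Between 54.9 and 342 reads lay behind each value.

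*Has2*, which encodes the main hyaluronan synthase of the developing heart and vessels, was read at 0.681, 0.486 and 0.765 CPM in *Atgl* ECKO, against 0.449, 0.378 and 0.438 CPM in control LECs. The lowest *Atgl* ECKO library was just above the highest control library, and the values rested on 21.0 to 49.9 reads. The ratio of the means was 1.53. In the fit with no filter on low values the log2 fold change was 0.21 (interval 0.06 to 0.35, limma BH-adjusted p = 0.0184), where 25.5% of 20409 genes were higher. The ratio of *Has3* to *Has2*, each per kilobase of exon, was 1.16 ± 0.512 in *Atgl* ECKO and 7.72 ± 0.848 in control LECs (SD, n = 3 each). On this scale *Has3* stood above *Has2* in all 3 control libraries, whereas in *Atgl* ECKO the ranges of both genes overlapped. The ratio does not count transcripts, and *Has1* is not part of it.

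Link proteins bind a hyaluronan chain and the head of a proteoglycan at the same time and so lock them together. *Hapln1*, which encodes the link protein first known from cartilage, had 58.4, 59.9 and 52.7 CPM in *Atgl* ECKO, against 5.97, 5.39 and 6.23 CPM in control LECs. Every *Atgl* ECKO library was far above every control library. The means were 57.0 ± 3.82 and 5.86 ± 0.428 CPM (SD, n = 3 each), a 9.72-fold higher level, with a log2 fold change of 3.08. As this rise chose the genes, no test is given. The defining cartilage genes *Col2a1* and *Sox9* did not exceed 0.166 CPM in any library, and the 4 cartilage markers in the table summed to 0.470 to 0.704 CPM in *Atgl* ECKO and 0.252 to 0.393 CPM in control LECs. Of these, *Comp* was at 0.317, 0.243 and 0.398 CPM in *Atgl* ECKO, against 0.174, 0.0900 and 0.0906 CPM in control LECs, without overlap. It was below the filter and was not tested.

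*Vcan* encodes versican, the large chondroitin sulfate proteoglycan of the vessel wall whose head domain binds hyaluronan. It had 47.5, 53.2 and 54.4 CPM in *Atgl* ECKO, against 29.1, 32.6 and 27.8 CPM in control LECs, with no overlap. *Vcan* rose 1.73-fold in mean CPM, with a log2 fold change of 0.77 (interval 0.65 to 0.90, limma BH-adjusted p = 7.53e-09). *Hapln4*, the link protein gene best known from brain, was also higher, at 3.82, 3.61 and 3.56 CPM in *Atgl* ECKO, against 2.85, 2.50 and 3.08 CPM in control LECs (log2 fold change 0.29, limma BH-adjusted p = 0.00231). Per kilobase of exon, the ratio of *Vcan* to *Hapln1* was 0.388 ± 0.0475 in *Atgl* ECKO and 2.18 ± 0.351 in control LECs. On this scale *Vcan* thus stood above *Hapln1* in the 3 control libraries and below it in the 3 *Atgl* ECKO libraries. The scale divides by all merged exons of a gene. Which isoforms were made was not measured, so the ratio does not count transcripts. Its change also contains the rise of *Hapln1* that chose the genes.

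*Hapln1* and *Vcan* are next to each other on mouse chromosome 13. The 250 bases before the transcript start that the RefSeq promoter table gives (other transcripts may start elsewhere) for both genes and for *Cd44*, the other gene of the group with a rise of similar size to *Vcan*, are shown because these transcripts were higher together. The windows come from RefSeq on build GRCm38.p6, which held 7 of the 10 genes, are written 5′ to 3′ on the strand of the gene, and are at chr13:89540386-89540635 (plus strand) for *Hapln1*, chr13:89742513-89742762 (minus strand) for *Vcan* and chr2:102901666-102901915 (minus strand) for *Cd44*. In the gene positions used here for gene order, *Vcan* spans 89655309 to 89743027, so its window lies inside the gene. *Hapln1* begins at 89540529 there, so the end of its window lies inside the gene too. Capitals mark matches to the GC box (GGGCGG) or the CCAAT box (CCAAT) on either strand.
Hapln1: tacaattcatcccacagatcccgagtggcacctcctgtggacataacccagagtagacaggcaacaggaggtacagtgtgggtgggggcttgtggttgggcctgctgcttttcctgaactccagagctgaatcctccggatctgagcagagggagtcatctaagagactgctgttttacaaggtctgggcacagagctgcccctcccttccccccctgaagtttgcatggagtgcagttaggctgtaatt
Vcan: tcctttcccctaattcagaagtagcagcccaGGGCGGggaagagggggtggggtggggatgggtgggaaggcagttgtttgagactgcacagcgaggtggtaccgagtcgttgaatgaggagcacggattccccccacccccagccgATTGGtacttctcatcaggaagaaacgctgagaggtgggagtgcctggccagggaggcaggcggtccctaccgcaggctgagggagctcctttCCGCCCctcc
Cd44: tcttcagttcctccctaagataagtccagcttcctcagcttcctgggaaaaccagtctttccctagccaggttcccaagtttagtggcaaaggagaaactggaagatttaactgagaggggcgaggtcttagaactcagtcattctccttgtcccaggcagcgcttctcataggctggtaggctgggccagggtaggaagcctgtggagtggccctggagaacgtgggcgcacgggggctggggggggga
The *Vcan* window held 2 GC boxes and 1 CCAAT box, and the *Hapln1* and *Cd44* windows held none of the 6 motifs searched. These were, on both strands, TATAAA (in 12.4% of all 32851 RefSeq windows), GGGCGG (32.7%), CCAAT (33.8%), the AP-1 site TGANTCA (6.75%), the E-box CACGTG (6.02%) and the cyclic AMP element TGACGTCA (1.55%, which contains none of the other motifs). *Hapln1* had 2 CpG dinucleotides in its window, *Cd44* had 5 and *Vcan* had 10, beside a median of 6 over all windows. A match describes letters only, and the windows of *Hapln1* and *Vcan* shared no searched motif.

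Among the genes around *Hapln1* and *Vcan*, the 5 nearest tested genes on each side comprised 3 that were higher (beside 34.2% of all tested genes), 2 that were lower (beside 36.2%) and 5 that were not called. Their median log2 fold change was 0.05, and that of chromosome 13 was -0.12. *Edil3*, the nearest tested gene on the *Hapln1* side, encodes a secreted matrix protein that binds integrins. It had 26.7, 28.2 and 24.99 CPM in *Atgl* ECKO, against 9.69, 9.06 and 11.4 CPM in control LECs (log2 fold change 1.33, limma BH-adjusted p = 8.94e-11). The other neighbours lay between -0.29 (*Ccnh*) and 0.22 (*Atg10*). A pair of transcripts that lie inside the locus, *Gm8546* and *Gm4117*, had log2 fold changes of -0.01 and -0.02. Both lie on the strand opposite to *Hapln1* or *Vcan*, and with no strand setting known their reads may be shared with these genes. *Edil3*, *Hapln1* and *Vcan* thus stood above the other genes of this stretch.

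**Figure D2:**
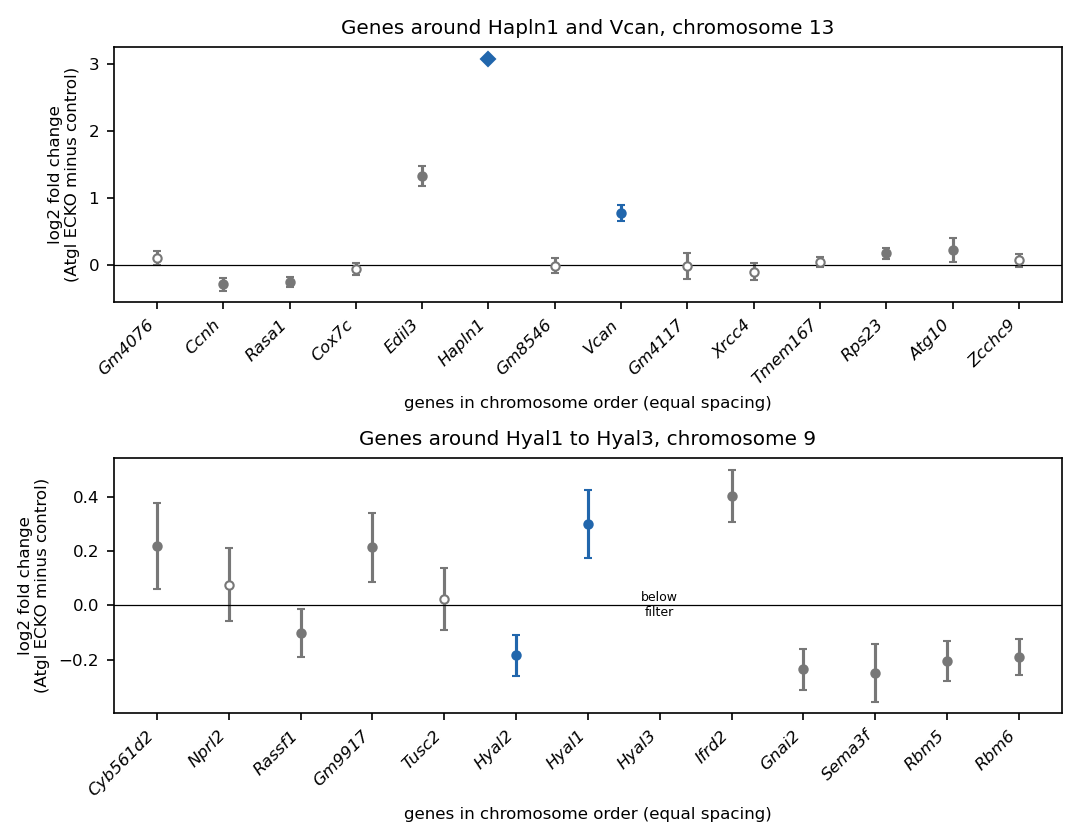
Log2 fold change (*Atgl* ECKO minus control, log2(CPM + 1) scale) of tested genes around *Hapln1* and *Vcan* on chromosome 13 and around *Hyal1* to *Hyal3* on chromosome 9, in gene order with equal spacing. Bars are 95% intervals, filled points passed the test, open points did not, blue marks the hyaluronan genes, and *Hapln1* is a diamond with no test; *Edil3* (1.33), *Hapln1* (3.08) and *Vcan* (0.77) stand above their neighbours.

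The receptors moved unequally. CD44, the principal hyaluronan receptor of many cell types and a co-receptor for growth factor signals, was encoded by a transcript at 313, 329 and 330 CPM in *Atgl* ECKO, against 187, 202 and 195 CPM in control LECs. The means were 324 ± 9.58 and 195 ± 7.22 CPM (SD, n = 3 each), with no overlap. *Cd44* rose 1.67-fold (log2 fold change 0.73, interval 0.66 to 0.80, limma BH-adjusted p = 2.51e-11). With the chromosome median removed the log2 fold change was 0.96.

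*Lyve1*, which encodes the hyaluronan receptor of lymphatic vessels that is also found on some blood capillaries, had 1894, 1846 and 1741 CPM in *Atgl* ECKO, against 1876, 1793 and 1926 CPM in control LECs. The genotypes overlapped, and the log2 fold change was -0.03 (interval -0.11 to 0.06, limma BH-adjusted p = 0.519). This interval does not include a difference of the size seen for *Cd44* or *Vcan* in either direction. Of the lymphatic markers, 4 were near 0 in every library: *Prox1* did not exceed 0.0540 CPM, *Pdpn* 0.0870 CPM, *Reln* 0.144 CPM and *Mmrn1* 0.420 CPM. *Flt4*, which encodes the receptor VEGFR-3, was not, at 106, 104 and 97.4 CPM in *Atgl* ECKO, against 140.6, 144 and 154 CPM in control LECs (log2 fold change -0.51, limma BH-adjusted p = 1.21e-08). The lymphatic markers in the table other than *Lyve1* summed, almost wholly through *Flt4*, to 97.8 to 106 CPM in *Atgl* ECKO and 141.2 to 155.0 CPM in control LECs.

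*Stab1* encodes stabilin-1, a scavenger receptor of sinusoidal ECs and of some macrophages. It had 832, 789 and 780 CPM in *Atgl* ECKO, against 749, 744 and 777 CPM in control LECs, and the closest libraries of the genotypes almost met. The log2 fold change was 0.08 (interval 0.01 to 0.15, limma BH-adjusted p = 0.0421). The call was lost without *Atgl* ECKO replicate 1 (limma BH-adjusted p = 0.206) or 2 (0.0688) and without control replicate 1 (0.111) or 2 (0.122). With the median of chromosome 14 removed, *Stab1* was lower in *Atgl* ECKO (log2 fold change -0.37, limma BH-adjusted p = 1.15e-07), so its direction was not settled.

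*Cd44*, *Lyve1* and *Stab1* are also read in macrophages. The 6 of 12 macrophage and leukocyte markers with a row summed to 63.8 to 75.3 CPM in *Atgl* ECKO and 21.3 to 24.5 CPM in control LECs, mostly through *Cd68*, a lysosomal protein gene, at 71.1, 64.8 and 60.4 CPM in *Atgl* ECKO and 18.8, 16.9 and 19.6 CPM in control LECs. The defining macrophage genes *Csf1r*, *Itgam* and *Fcer1g* did not exceed 0.718, 0.245 and 0.114 CPM in any library. *Mrc1*, another macrophage gene, was lower without overlap (mean 0.246 CPM in *Atgl* ECKO and 0.877 CPM in control LECs). *Itgam* was higher without overlap (0.173 and 0.0747 CPM), and both were below the filter. The leukocyte gene *Laptm5* passed the filter and was not called (mean 2.95 CPM in *Atgl* ECKO and 2.70 CPM in control LECs, limma BH-adjusted p = 0.356). Fibroblast, smooth muscle and pericyte markers, of cells that also make versican, summed to 364 to 435 CPM in *Atgl* ECKO and 311 to 354 CPM in control LECs over 10 of 12 genes, nearly all through the contractile genes *Acta2* and *Tagln*. *Acta2* was lower (mean 116 CPM in *Atgl* ECKO and 167 CPM in control LECs, log2 fold change -0.53), while *Tagln* (271 CPM in *Atgl* ECKO and 159 CPM in control LECs, 0.77) and *Cnn1* (0.73) were higher. *Dcn* did not exceed 0.0634 CPM and *Pdgfra* 0.377 CPM. Other genes of this list below the filter did not overlap between the genotypes, in both directions. Mean CPM was lower in *Atgl* ECKO for *Col1a1* (0.359 against 1.20 in control LECs), *Col1a2* (0.126 against 0.243) and *Col3a1* (0.0366 against 0.454). It was higher for *Pdgfrb* (0.734 against 0.226). The 6 of 7 epithelial markers summed to 42.2 to 44.6 CPM in *Atgl* ECKO and 18.0 to 19.0 CPM in control LECs, mostly through *Krt18*, while *Epcam* did not exceed 0.0649 CPM. All 3 tested epithelial markers were higher, beside 34.2% of all tested genes. Besides *Krt18* these were *Krt8* (mean 4.95 CPM in *Atgl* ECKO and 1.89 CPM in control LECs) and *Ager* (1.48 and 1.02 CPM). The part of these markers in the results was not tested.

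The hyaluronidases differed in direction and by little. *Hyal1*, which encodes the acid hyaluronidase of lysosomes, had 12.2, 10.7 and 11.98 CPM in *Atgl* ECKO, against 9.36, 9.64 and 8.77 CPM in control LECs. The genotypes did not overlap, and *Hyal1* rose (log2 fold change 0.30, interval 0.17 to 0.43, limma BH-adjusted p = 0.000308). *Hyal1* overlaps *Naa80* and *Hyal3* in the annotation, and no source used here gives the strand setting of the counting, so reads of these genes may have been divided between them.

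*Hyal2*, which encodes a hyaluronidase anchored at the cell surface that cuts long chains into shorter ones, had 58.9, 56.1 and 55.0 CPM in *Atgl* ECKO, against 63.3, 63.7 and 66.5 CPM in control LECs. It fell to 56.7 ± 1.97 CPM in *Atgl* ECKO, against 64.5 ± 1.77 CPM in control LECs (log2 fold change -0.18, interval -0.26 to -0.11, limma BH-adjusted p = 0.000272). With the median of chromosome 9 (-0.10) removed, the log2 fold change was -0.08 and the call was lost (limma BH-adjusted p = 0.0581). Among the 10 nearest tested genes of this cluster, 3 were higher (beside 34.2% of all tested genes), 5 lower (beside 36.2%) and 2 not called, between 0.40 (*Ifrd2*) and -0.25 (*Sema3f*). The ratio of *Hyal2* to *Hyal1* per kilobase was 5.66 ± 0.376 in *Atgl* ECKO and 8.10 ± 0.613 in control LECs (SD, n = 3 each). *Hyal3* was at 0.158 to 0.357 CPM in *Atgl* ECKO and 0.232 to 0.242 CPM in control LECs, below the filter.

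Levels were compared between genes as CPM per kilobase of merged exons (GENCODE M21). In *Atgl* ECKO the order was *Lyve1* (632), *Stab1* (100.04), *Cd44* (57.3), *Hyal2* (17.4), *Hapln1* (9.98), *Vcan* (3.86), *Hyal1* (3.08), *Has3* (0.165) and *Has2* (0.152). In control LECs it was *Lyve1* (645), *Stab1* (94.6), *Cd44* (34.4), *Hyal2* (19.8), *Hyal1* (2.45), *Vcan* (2.22), *Hapln1* (1.03), *Has3* (0.763) and *Has2* (0.0995). The order changed for *Hapln1*, at place 5 in *Atgl* ECKO and place 7 in control LECs, and *Hyal1*, at place 7 in *Atgl* ECKO and place 5 in control LECs. *Hyal1* itself was higher in *Atgl* ECKO, and *Hapln1* and *Vcan* passed it. The move of *Hapln1* contains the rise that chose the genes. Neighbours in the order did not overlap over the libraries except *Has3* and *Has2* in *Atgl* ECKO and *Hyal1* and *Vcan* in control LECs. On this scale the receptor genes thus stood well above *Has2* and *Has3* in both genotypes.

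**Figure D3:**
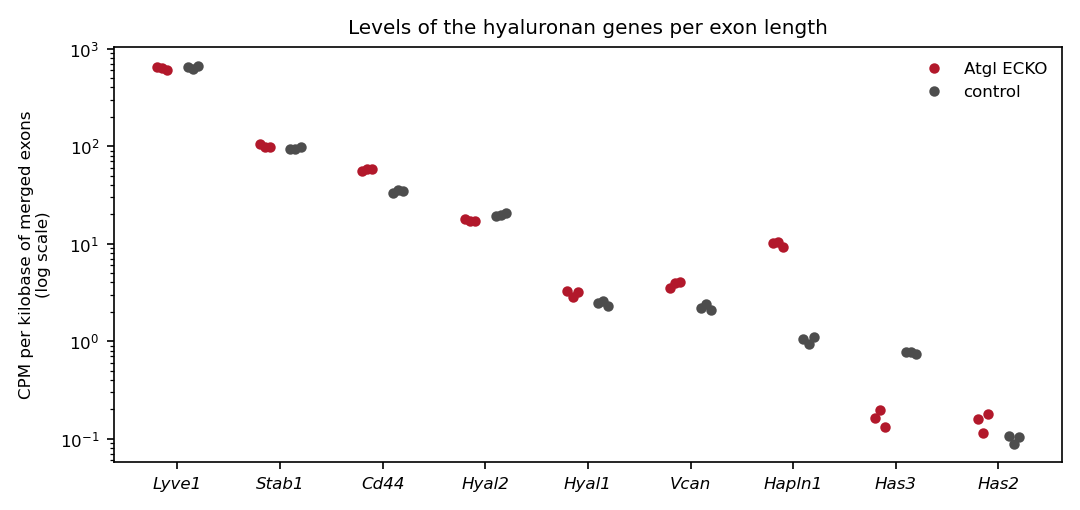
CPM per kilobase of merged exons (log axis) of the 9 hyaluronan genes in each library, *Atgl* ECKO left of control for each gene and genes ordered by their control level. *Lyve1* is highest (632 in *Atgl* ECKO and 645 in control LECs), *Has2* and *Has3* are lowest, and *Hapln1* changes its place (9.98 in *Atgl* ECKO and 1.03 in control LECs).

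Beyond these genes, 73 other genes were listed by role, of which 59 had a row and 47 were tested. The lists cover hyaluronan breakdown, binding and sugar supply, and link proteins. They also cover versican cleavage (4 tested), chondroitin sulfate chains (12 tested) and membrane partners of CD44 (7 tested), which are not genes of hyaluronan turnover as such. Of the 47, 8 were higher (beside 34.2% of all tested genes), 29 were lower (beside 36.2%) and 10 were not called, and 37 had no overlap between the genotypes (beside 73.1%). Their median log2 fold change was -0.17, beside -0.01 over all tested genes.

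The largest difference among them was in the proteases that cut versican. *Adamts5*, which encodes a protease that cleaves versican and aggrecan, had 40.3, 42.0 and 39.3 CPM in *Atgl* ECKO, against 243, 229 and 253 CPM in control LECs. It fell to 16.8% of the control level, without overlap (log2 fold change -2.55, limma BH-adjusted p = 4.96e-17). *Adamts9* (-0.67) and *Adamts4* (-0.38) were lower as well, while *Adamts1* had a log2 fold change of 0.01 (interval -0.06 to 0.08, limma BH-adjusted p = 0.854). In all, 3 of the 4 tested versican proteases were lower, beside 36.2% of all tested genes.

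Of 8 other tested receptors and hyaluronan binders, 0 were higher (beside 34.2% of all tested genes), 6 were lower (beside 36.2%) and 2 were not called (median log2 fold change -0.21). *Tnfaip6* encodes TSG-6, which transfers protein heavy chains onto hyaluronan. It had 1.90, 1.86 and 1.68 CPM in *Atgl* ECKO, against 8.83, 8.45 and 9.28 CPM in control LECs (log2 fold change -1.81, limma BH-adjusted p = 1.5e-12). *Stab2*, which encodes the endocytic hyaluronan receptor of liver sinusoids, had 2.39, 2.63 and 2.08 CPM in *Atgl* ECKO, against 5.85, 6.02 and 6.93 CPM in control LECs (log2 fold change -1.11, limma BH-adjusted p = 4.84e-09). Both fell without overlap. *Habp4* (-0.52), which encodes an intracellular RNA-binding protein, and *Itih5* (-0.24), of the heavy chain family that TSG-6 acts on, were lower too. *Itih5* lies on chromosome 2, whose median log2 fold change (-0.23) was close to that of the gene. The innate receptor genes *Tlr2* (0.10) and *Tlr4* (0.00) were not called.

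Of the 4 other tested genes of hyaluronan breakdown, 1 was higher (beside 34.2% of all tested genes) and 3 were lower (beside 36.2%). *Hexa* (0.13), which encodes part of a lysosomal enzyme that trims sugars from the chain ends, was higher. *Gusb* (-0.17), the lysosomal β-glucuronidase gene, was lower. *Tmem2* encodes a transmembrane protein of hyaluronan breakdown at the cell surface, and had 410, 393 and 379 CPM in *Atgl* ECKO, against 483, 471 and 456 CPM in control LECs (log2 fold change -0.25, limma BH-adjusted p = 7.49e-06). *Cemip*, whose protein is also needed for breakdown outside the lysosome, was at 0.153 to 0.206 CPM in *Atgl* ECKO and 0.0580 to 0.306 CPM in control LECs, below the filter.

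The genes that supply the nucleotide sugars were mixed: 3 of 11 were higher (beside 34.2%), 5 lower (beside 36.2%) and 3 not called (median log2 fold change -0.05). *Ugdh*, which encodes the enzyme that makes UDP-glucuronic acid, was not called (-0.05, limma BH-adjusted p = 0.257), and neither was *Gfpt1* (0.03), the entry enzyme of the hexosamine pathway. *Ugp2*, whose product makes UDP-glucose, had 38.4, 39.4 and 37.1 CPM in *Atgl* ECKO, against 66.5, 62.9 and 63.2 CPM in control LECs (log2 fold change -0.73, limma BH-adjusted p = 7.09e-11). Of the later hexosamine steps to UDP-N-acetylglucosamine, *Pgm3* (-0.55) and *Uap1* (-0.31) were lower and *Gnpnat1* (0.34) was higher. *Gnpnat1* lies on chromosome 14, whose median log2 fold change (0.45) was above that of the gene.

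Of 12 tested genes that build the chondroitin sulfate chains carried by versican, 2 were higher (beside 34.2% of all tested genes), 8 lower (beside 36.2%) and 2 not called (median log2 fold change -0.25). *Csgalnact1*, which encodes an enzyme that starts the chain, had 51.3, 48.6 and 46.1 CPM in *Atgl* ECKO, against 29.2, 28.8 and 29.7 CPM in control LECs (log2 fold change 0.72, limma BH-adjusted p = 3.83e-10). *Chsy1* (-0.49), for chain extension, *Chst12* (-0.73), a sulfotransferase gene, and *Dse* (-0.85), for the epimerase that turns chondroitin into dermatan sulfate, were lower.

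Of 7 tested partners of CD44 at the membrane, 1 was higher (beside 34.2% of all tested genes), 4 lower (beside 36.2%) and 2 not called (median log2 fold change -0.17). *Adam10*, which encodes a protease that sheds the CD44 ectodomain, had 272, 268 and 253 CPM in *Atgl* ECKO, against 438, 423 and 428 CPM in control LECs (log2 fold change -0.70, limma BH-adjusted p = 2.48e-11). *Mmp14* (0.18), for another protease that cleaves CD44, was higher. It lies on chromosome 14, whose median log2 fold change (0.45) was above that of *Mmp14*. *Rdx* (-0.31) and *Ezr* (-0.17), which encode linkers of CD44 to actin, were lower, and the third linker gene, *Msn*, was not called (-0.05, limma BH-adjusted p = 0.197). *Adam17* (0.02) was not called either.

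**Figure D4:**
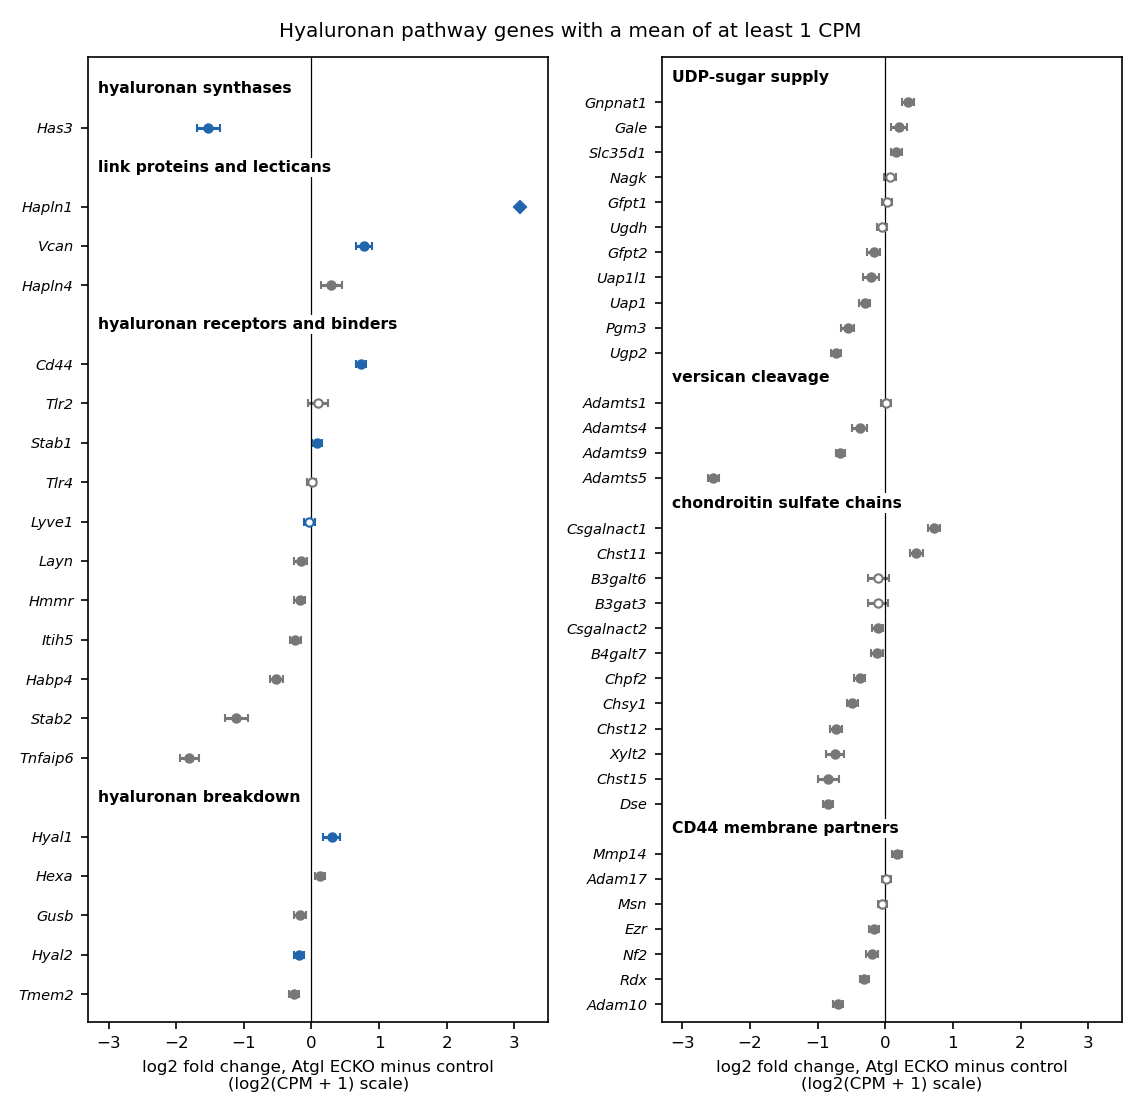
Log2 fold change (*Atgl* ECKO minus control, log2(CPM + 1) scale) of the hyaluronan genes and other listed genes averaging 1 CPM or more, grouped by role, with 95% intervals. Blue marks the genes described one by one and grey the other listed genes; filled points passed the test, open points did not, and *Hapln1* is a diamond with no test; *Adamts5* (-2.55), *Tnfaip6* (-1.81) and *Has3* (-1.52) lie farthest to the left.

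The pattern of *Hapln1* over the 6 libraries was compared with that of 8595 tested genes averaging 10 CPM or more by Pearson's r of log2(CPM + 1). The highest values belonged to *Pgam1*, *Rps24*, *Ccnd2*, *Prom1* and *Ghitm*, all at or above 0.9996, and 841 genes exceeded 0.99. With 3 libraries of each genotype, such an r mostly reflects the difference between the genotypes, and the likeness is a description of these libraries alone. *Prom1* had 39.7, 39.9 and 35.3 CPM in *Atgl* ECKO, against 0.941, 0.593 and 0.951 CPM in control LECs.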

How the data were processed

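RNA was ribo-depleted and sequenced as paired-end reads. The authors used STAR for alignment and Partek E/M for quantification, and deposited gene values as CPM. No source used here gives tool versions. Their methods state hg19, a human build, whereas the table holds mouse symbols, so RefSeq (GRCm38.p6) and GENCODE M21 served only for names, gene order, exon lengths and promoter windows. Of 20430 rows, 21 had a date for a symbol and were left out, as was 1 stray cell. Every value carries an offset of 0.0001 CPM. The sheet of z-scores was not used. With no counts in the table, depth was read from the step between low values (55.5 to 69.0 reads per CPM), and 85.1% to 86.2% of low values lay within 0.1 of a whole read.

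The 12837 genes averaging 1 CPM or more were fitted with limma 3.58.1 in R 4.3.3 (lmFit, eBayes with trend, genotype only, log2(CPM + 1)), with Benjamini-Hochberg adjustment, a threshold of 0.05, and 4 residual and 10.9 prior degrees of freedom. The members and lists were chosen with earlier results of these data known. Named genes are the members, *Pnpla2*, up to 4 genes per list with the smallest adjusted p and any named as not passing, marker genes, 5 tested neighbours on each side, and the 5 genes most like *Hapln1*. In the list of hyaluronan breakdown, 1 gene is counted but not reported or plotted here. *Prom1* values were added after they were seen. On data simulated for this comparison (12837 genes), 42 of 67 log2 changes of 0.25 were recovered, 62 of 67 of 0.5 and 66 of 66 of 1. Of 181 called genes, 11 were unchanged ones. Only these few genes were changed in the simulation, with no shift of whole chromosomes. Its shares therefore need not hold for the real libraries, where most genes were called. Alternatives were pseudocounts of 0.1 and 3 CPM, no filter, a filter at 5 CPM, median ratios, quantile normalization, no trend, no moderation, a replicate block, leaving out each library, chromosome medians removed, and the log2 ratio of mean CPM.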

Additional observations from a re-analysis of the deposited data

How the results depend on the processing

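*Cd44*, *Vcan*, *Hyal1* and *Pnpla2* kept their direction and side of the threshold in all 16 alternative fits, as did *Has3* in the 15 that gave it a value (a filter at a mean of 5 CPM gave none). As log2 ratios of mean CPM, *Hapln1* was 3.28, *Has3* -2.21 and *Pnpla2* -1.57. *Stab1* (0.08) was called higher in 7 of 16 and lower in 1, and lost the call with no filter (limma BH-adjusted p = 0.0896), without the trend (0.101), with no moderation (0.113) and with the replicate block (0.0697). Leaving out each library gave *Stab1* 0.05 to 0.10 and *Lyve1* -0.058 to 0.0047, the last without *Atgl* ECKO replicate 3. With chromosome medians removed, *Stab1* was -0.37, *Lyve1* 0.019 and *Hyal2* -0.08. *Lyve1* was called lower with quantile normalization (-0.10, limma BH-adjusted p = 0.0152). Counts of called genes stayed within 1.5 times. Equal replicate numbers did not pair the libraries (correlations of 0.086, 0.091 and -0.151), and the block gave 4367 higher and 4602 lower genes; not every library correlated best with its own number. Among *Has3*, *Vcan*, *Cd44*, *Lyve1*, *Stab1*, *Hyal1* and *Hyal2* it changed the call of *Stab1* alone. *Has2* was not fitted with the block. Depth limits *Has2* (21.0 to 49.9 reads).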

Other observations

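Some listed genes below the filter had levels that did not overlap between the genotypes, as was so for 73.1% of the tested genes. These listed genes are named after their values were seen, and were not tested. The share without overlap among all genes below the filter is not given. Other listed genes below the filter did overlap: *Hyal3*, *Cemip*, *Bcan*, *Itih3*, *Itih4*, *Chpf* and *Chst3*. Those without overlap follow. *Ust*, which encodes a sulfotransferase of dermatan sulfate, was at 0.443, 0.502 and 0.719 CPM in *Atgl* ECKO, against 0.0725, 0.0361 and 0.0454 CPM in control LECs. *Xylt1*, for an enzyme that places the linker sugar of chondroitin sulfate on the core protein, was at the offset of 0.0001 CPM, which stands for 0, in *Atgl* ECKO replicates 1 and 3 and at 0.0163 CPM in replicate 2, against 0.521, 0.593 and 0.498 CPM in control LECs. Its paralog *Xylt2*, which passed the filter, was lower too (10.4, 8.88 and 8.78 CPM in *Atgl* ECKO, against 16.8, 15.5 and 16.4 CPM in control LECs; log2 fold change -0.74, limma BH-adjusted p = 3.27e-08). *Itih2* was at 0.0951, 0.146 and 0.153 CPM in *Atgl* ECKO, against 0.362, 0.306 and 0.543 CPM in control LECs. *Ank3* was at 0.206, 0.211 and 0.275 CPM in *Atgl* ECKO, against 0.0870, 0.126 and 0.136 CPM in control LECs. *Ptx3*, for a pentraxin that helps cross-link hyaluronan in the matrix around the mouse egg, was at 0.158, 0.227 and 0.138 CPM in *Atgl* ECKO, against 0.652, 0.629 and 0.664 CPM in control LECs. *Ptx3* and *Tnfaip6*, whose products act in that matrix together, were thus both at lower levels in the *Atgl* ECKO libraries.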
